A study of Mus musculus with 4 samples.

Results

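The genes described here are 62 mouse transcription factor genes from families of which many members mark position in the embryo. The families are T-box, Zic, Dlx, Msx, Pitx, Alx, Prrx, Otx, Emx, sine oculis (Six2 to Six6), Lhx, Meis, Pbx, Irx and Twist. The genes were taken by gene symbol alone, as every family name followed by a number, whether or not each gene marks position. The rule used no measured value, although the families were chosen with earlier results of these data known. They are read by 110 of the 45037 probe sets of the array that are not controls, and make up 62 of the 18193 genes that a probe set names singly. A probe set is a group of short probes against 1 transcript, and its MAS5 signal is a linear brightness. Of the 62 genes, 28 had a probe set in the brighter 50% of the array and entered the test, through 45 probe sets. The other 34 genes lay below that limit, which sat near a signal of 62.8.

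Many of these factors give cells of different body regions different identities. Homeodomain, T-box, zinc finger and basic helix-loop-helix proteins each bind DNA through the domain that names them, and combinations of them set up limb, face, heart, gonad and brain territories. Fibroblasts from different sites are known to keep such combinations in culture, so many of these genes can carry a positional record. Whether they do so in these cells was not tested.

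The cells were immortalised mouse embryonic fibroblasts with 2 loxP-flanked copies of PA1, the gene Pagr1a, whose protein belongs to the complexes built around the histone methyltransferases KMT2C and KMT2D. PA1 -/- cells (the knockout) had been infected with a retrovirus carrying Cre recombinase, which cuts out DNA between loxP sites. PA1 +/+ cells (the wild type) had been infected with the empty retroviral vector and keep the loxP-flanked alleles. All cells were selected with 2.0 µg/ml puromycin for 3 days, with the selection then repeated. Each genotype has 2 arrays, numbered 1 and 2 in the labels, which do not say whether a number marks a separate culture, embryo or cell line. The spread that each p-value is set against is thus that of these 4 samples alone and may be technical. The sources used here do not give the embryos' age, how the cells were immortalised or whether they descend from 1 clone.

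Pagr1a, the targeted gene, had 108 and 113 signal units on the knockout arrays numbered 1 and 2, against 1340.3 and 1389 on the wild-type arrays, so the labels hold on every array. Array medians ran from 63.2 to 66.4. The arrays stood apart by replicate number: the log2 signals of knockout and wild-type arrays correlated at 0.977 within number 2 and 0.971 within number 1, while the pair of knockout arrays correlated at 0.92 and the wild-type pair at 0.918. Of the 11 fibroblast markers, 10 were in the brighter 50%, with summed signals of 79376 and 89128 on the knockout and 89063 and 109461 on the wild-type arrays. All 3 pluripotency markers, 3 of 4 endothelial, 3 of 4 blood and 3 of 4 muscle markers stayed below the array-wide median on all 4 arrays, and none was listed at 0. Of 5 neural markers 1 did, Gfap, at 53.2 and 46.2 on the knockout and 44.4 and 7.31 on the wild-type arrays. Tubb3, a neuronal tubulin gene, read 384 and 122 on the knockout and 963 and 451 on the wild-type arrays. In the same order, Nes read 1124 and 1236 against 1089 and 1586, and Sox10 read 68.7 and 107 against 68.5 and 107. Sox2 read 59.7 and 6.10 against 140 and 6.59. The 4 epithelial markers summed to 267 (knockout) and 233 (wild type) on the arrays numbered 2, against 443 and 657 on those numbered 1. Of the 4, Krt18 and Cdh1 were lower in number 2 (-3.36 and -2.63), while Epcam (0.43) and Krt8 (0.10) were not. The part of Krt18 and Cdh1 in the results below was not tested. In these bulk samples, fewer cells of a type and less RNA per cell cannot be told apart.

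Of the 28 tested positional genes, 11 differed between the arrays numbered 2 and those numbered 1, and 17 did not pass. Tbx1, Six2, Lhx9, Prrx1, Emx2 and Pbx3 were lower in number 2, and Zic1, Irx3, Tbx20, Dlx1 and Msx2 were higher there. Without overlap between the numbers, 11 of the 28 tested genes lay lower (31.0% of all tested genes) and 9 higher (29.8%). The test itself was passed by the 11 named genes, 6 lower and 5 higher, where 13.7% of all 10714 tested genes passed (7.24% lower and 6.45% higher). The test was limma with the replicate number as its only term, on log2(signal + 9.98), its p-values adjusted by Benjamini and Hochberg's method across the 22519 probe sets kept, and 0.05 as the threshold. Because a gene near the limit enters the test only if it is bright somewhere, the same genes were also counted without the limit. Of all 62 genes, 10 were at least 2-fold lower (4.30% of all genes) and 5 at least 2-fold higher (2.79% of all genes) in number 2 within each genotype. Among the tested 28 these counts were 5 (4.52% of all tested genes) and 5 (3.77%). The values of each of the 11 did not overlap between the numbers, so each keeps its sign with any array left out. In the fits with an array left out, the limit was still set from all 4 arrays. Those fits therefore do not check the entry of Tbx1, Six2, Lhx9 and Zic1, which lay below the limit at 1 of the numbers.

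**Figure D1:**
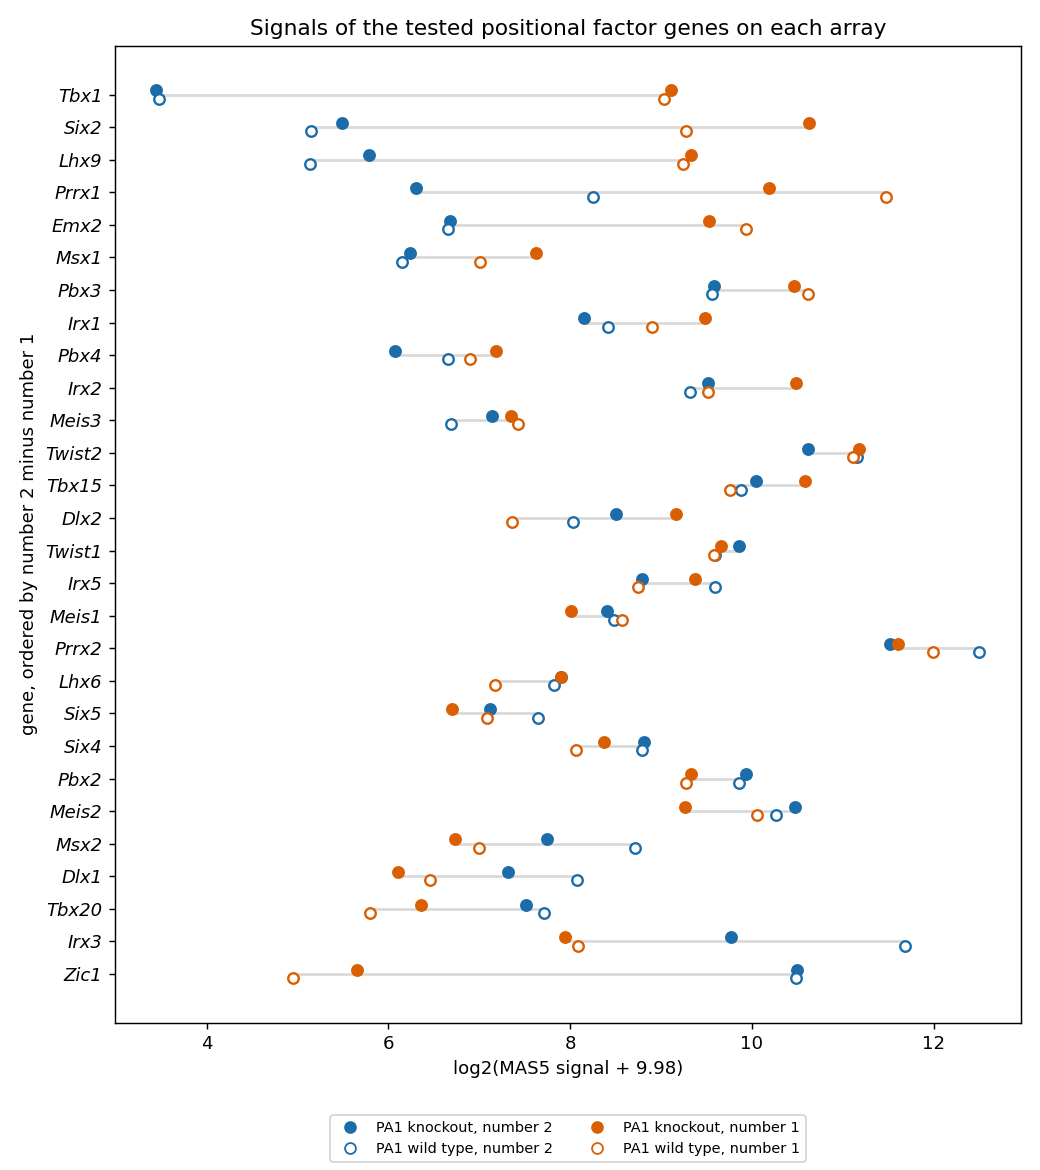
Log2(MAS5 signal + 9.98) of the 28 tested genes on each array, ordered from the lowest to the highest difference of number 2 minus number 1; filled circles are knockout and open circles wild-type arrays, blue for number 2 and orange for number 1, and grey lines span the 4 values. For Tbx1, Six2, Lhx9, Emx2 and Zic1 the gap between the colours exceeds the gap between genotypes within a colour. Among these genes the gap between genotypes is widest for Six2 at number 1 (1.35).

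The upstream sequences of 5 of these genes are shown because they carried large differences between the numbers, and, for Prrx1, also because it was the one tested gene at least 2-fold lower in the knockout at both numbers. Each is the 250 bases before the start of the gene from RefSeq's table (build GRCm38.p6), 5′ to 3′ on the gene's strand, with CpG dinucleotides in capitals. The coordinates are chr9:91365769-91366018, minus strand for Zic1, chr17:85688255-85688504, minus strand for Six2, chr19:59458440-59458689, plus strand for Emx2, chr1:138842445-138842694, minus strand for Lhx9 and chr1:163313651-163313900, minus strand for Prrx1.
Zic1: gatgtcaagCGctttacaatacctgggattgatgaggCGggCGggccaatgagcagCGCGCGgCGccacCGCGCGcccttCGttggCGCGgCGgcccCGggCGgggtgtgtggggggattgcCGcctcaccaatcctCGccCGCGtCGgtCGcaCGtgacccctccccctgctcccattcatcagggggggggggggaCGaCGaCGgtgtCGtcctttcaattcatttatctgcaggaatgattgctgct
Six2: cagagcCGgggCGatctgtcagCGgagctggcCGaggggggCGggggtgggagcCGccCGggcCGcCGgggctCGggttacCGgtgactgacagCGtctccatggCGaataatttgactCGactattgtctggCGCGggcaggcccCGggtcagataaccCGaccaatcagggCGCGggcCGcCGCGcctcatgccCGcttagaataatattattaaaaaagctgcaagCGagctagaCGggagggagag
Emx2: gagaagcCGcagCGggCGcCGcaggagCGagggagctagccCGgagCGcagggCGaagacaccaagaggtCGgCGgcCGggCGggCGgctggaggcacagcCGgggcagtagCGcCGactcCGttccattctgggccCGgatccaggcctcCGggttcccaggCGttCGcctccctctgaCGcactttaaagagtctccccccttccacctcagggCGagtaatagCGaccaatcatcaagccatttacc
Lhx9: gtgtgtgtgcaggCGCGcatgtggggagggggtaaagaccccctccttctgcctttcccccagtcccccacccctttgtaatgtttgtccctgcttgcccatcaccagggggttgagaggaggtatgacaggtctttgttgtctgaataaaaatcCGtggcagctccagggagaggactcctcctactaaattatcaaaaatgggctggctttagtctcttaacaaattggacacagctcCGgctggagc
Prrx1: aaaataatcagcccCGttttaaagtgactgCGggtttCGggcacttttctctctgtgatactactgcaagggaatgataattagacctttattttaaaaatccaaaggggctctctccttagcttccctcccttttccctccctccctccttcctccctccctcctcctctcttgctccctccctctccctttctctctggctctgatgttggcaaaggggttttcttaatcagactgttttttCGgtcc

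Zic1, Six2 and Emx2 have dense CpG dinucleotides there, 27, 26 and 24 in 250 bases, while Lhx9 and Prrx1 have 4 each. Genes of both kinds were among those that differed between the numbers. Over the 44 genes with an entry in the table, 27 (61.4%) had a sequence with a CpG count at least 0.6 of that expected from its C and G content and at least 50% GC, against 33.4% of all 27025 genes in the table. The motif TAATTA, a core that many homeodomains bind, was found on either strand in 5 of the 44 (11.4%) and in 5.65% of all. TATAAA was found on either strand in 7 of the 44 (15.9%) and in 14.3% of all, and the T-box motif AGGTGTGA in 0 of the 44 and 1.3% of all. Matches of TAATTA and TATAAA may overlap each other. These matches describe letters only.

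Among the T-box genes, Tbx1, which patterns the pharyngeal arches, gave the largest difference. It read 0.91 (knockout) and 1.13 (wild type) in the arrays numbered 2, against 541 and 515 in those numbered 1. The log2 difference of number 2 minus number 1 was -5.61 (SE 0.275, limma adjusted p = 0.000117), rank 13 of the 10714 tested genes by size. The dim arrays lie at the bottom of the scale, so the fold change understates the ratio. Tbx1 entered the test through its number 1 arrays, since its number 2 values lay far below the limit near 62.8. Its entry thus depended on the contrast being tested, and its p-value and rank carry that selection. The p-values of Six2 and Lhx9, whose number 2 values also lay below that limit, carry it too. So does that of Zic1, below the limit on its number 1 arrays (40.3 and 20.8). Tbx20 lay below it on the wild-type array numbered 1 (45.8). Tbx3 and Alx1, bright only in number 1 like Tbx1, fell below the limit and were not tested.

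Tbx20, a gene of heart development, went the other way, with 174 (knockout) and 199.9 (wild type) in number 2 against 72.0 and 45.8 in number 1 (1.54, SE 0.297, limma adjusted p = 0.0176). Tbx15, which acts in the skeleton and the skin of the trunk, read 1044 (knockout) and 936 (wild type) in number 2 against 1528 and 860.1 in number 1, and did not pass (-0.21, limma adjusted p = 0.663). Of the 9 T-box genes below the limit, 2 were lower in number 2 like Tbx1 through their brightest probe set. Tbx3, which acts in the limb and mammary gland, read 4.52 (knockout) and 12.5 (wild type) in number 2 against 266 and 245 in number 1. Tbx18, a gene of anterior somites and ureter mesenchyme, read 2.90 and 3.69 in number 2 against 46.7 and 108 in number 1. Both brightest probe sets were at least 2-fold lower in number 2 within each genotype, and neither gene was tested. A dimmer Tbx18 probe set read 23.6 and 4.37 in number 2 against 15.5 and 25.7 in number 1, without that pattern in knockout cells.

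Zic1, a zinc finger gene of the dorsal neural tube and dorsal somites, was the strongest in the opposite direction. It read 1436 (knockout) and 1420.1 (wild type) in number 2 against 40.3 and 20.8 in number 1, a log2 difference of 5.19 (SE 0.292, limma adjusted p = 0.000167). A dimmer probe set below the limit read 283 and 202 in number 2 against 6.57 and 6.18 in number 1, the same contrast. Zic4, its neighbour on chromosome 9 with no other protein-coding gene between them, read 5.93 (knockout) and 34.6 (wild type) in number 2 against 7.32 and 4.70 in number 1. The neighbour lay below the median of the array on all arrays. Zic5 read 15.1 and 20.6 in number 2 against 85.3 and 52.0 in number 1 through its brightest probe set. Its other 2 probe sets were also lower in number 2 in knockout cells (-1.91 and -2.04) but not in wild-type cells (0.29 and 0.17). Its neighbour Zic2 stayed under 10 on every array (highest 9.65).

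The sine oculis gene Six2, known for nephron progenitors and the face, read 34.9 (knockout) and 25.5 (wild type) in number 2 against 1574 and 611 in number 1 (-4.64, SE 0.425, limma adjusted p = 0.000905). Its chromosome 17 neighbour Six3, a forebrain and eye gene, read 45.9 and 45.0 in number 2 against 49.3 and 34.1 in number 1, all below the array-wide median. Six4, which acts in muscle precursors, read 439 and 433 in number 2 against 322 and 258 in number 1 (0.58, limma adjusted p = 0.144). Six5, which lies beside the myotonic dystrophy kinase gene in mouse and human, read 129 and 190.1 in number 2 against 94.1 and 126 in number 1 (0.49, limma adjusted p = 0.320). For both, the lower of these number 2 values exceeded the higher of the number 1 values, and neither passed. The other tested probe sets of Six4 overlapped between the numbers (0.31 and 0.30). A dimmer Six4 probe set, below the limit, went the other way (-0.46).

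Among LIM homeobox genes, Lhx9, needed for the gonad, read 45.4 (knockout) and 25.1 (wild type) in number 2 against 632 and 594 in number 1 (-3.82, SE 0.295, limma adjusted p = 0.000484). The other tested probe sets of Lhx9 also passed, at -3.65 and -1.52. Lhx6, a gene of the jaw mesenchyme and of forebrain interneurons, read 229 and 217 in number 2 against 229 and 135 in number 1 and did not pass (0.32, limma adjusted p = 0.517). A dimmer Lhx6 probe set, below the limit, went the other way (-0.44). The head-gap gene Emx2, which acts in the forebrain and the urogenital tract, read 92.7 (knockout) and 90.8 (wild type) in number 2 against 726 and 970.3 in number 1 (-3.06, SE 0.247, limma adjusted p = 0.000595). For both Lhx9 and Emx2 the numbers did not overlap.

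Prrx1, a paired-type homeobox gene of limb and facial mesenchyme, was lower in number 2. Its brightest probe set read 69.1 (knockout) and 295 (wild type) in number 2 against 1160.4 and 2849.6 in number 1. The number difference was -3.56 (SE 0.629, limma adjusted p = 0.0127), and all 5 tested probe sets passed, from -3.56 to -1.94. Prrx2, its close paralog, read 2932 and 5799.9 in number 2 against 3102 and 4065 in number 1, with no such contrast (0.22, limma adjusted p = 0.684). Alx1, a gene of the frontonasal mesenchyme just below the limit, read 5.80 and 15.02 in number 2 against 129.6 and 494 in number 1, and was not tested. Pitx1, which specifies the hindlimb, read 14.4 and 5.85 in number 2 against 58.3 and 46.9 in number 1, below the median of the array throughout. Otx1 read 6.16 and 8.69 in number 2 against 66.1 and 25.5 in number 1.

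The distal-less and muscle-segment genes were split. Dlx1, which acts in the pharyngeal arches and forebrain, read 149 (knockout) and 259.9 (wild type) in number 2 against 58.8 and 77.8 in number 1 (1.42, SE 0.330, limma adjusted p = 0.0334). Its chromosome 2 neighbour Dlx2 read 354 and 251 in number 2 against 562 and 154 in number 1, and the numbers overlapped (0.01, limma adjusted p = 0.994). Msx2, a BMP-responsive gene of skull and limb, read 204 and 411 in number 2 against 96.7 and 118 in number 1 (1.36, SE 0.350, limma adjusted p = 0.0448). A dim Msx2 probe set below the limit did not follow it (-1.17 in knockout and 0.16 in wild-type cells). Its paralog Msx1 lay the other way, with 65.3 and 60.99 in number 2 against 188 and 118 in number 1, and did not pass (-1.13, limma adjusted p = 0.0524). Dlx5, below the limit, read 24.8 and 4.21 in number 2 against 59.2 and 87.4 in number 1.

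The TALE homeobox genes, of which Meis and Pbx proteins are DNA-binding partners of Hox proteins, gave 2 calls among 10 tested genes, 1 in each direction, close to the 13.7% of all tested genes. Irx3, a gene of limb and neural tube patterning, was higher, with 860.4 (knockout) and 3286 (wild type) in number 2 against 237 and 263 in number 1 (2.71, SE 0.530, limma adjusted p = 0.0185). Its chromosome 8 neighbour Irx5 read 434 and 762 in number 2 against 653 and 418 in number 1, with overlap (0.13, limma adjusted p = 0.824). Pbx3 read 757 and 748 in number 2 against 1399 and 1560.0 in number 1 (-0.96, SE 0.195, limma adjusted p = 0.0206). The dimmer tested probe set of Pbx3 was lower too but did not pass (-0.76, limma adjusted p = 0.0676).

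The remaining TALE genes did not pass between the numbers. Meis2 read 1412 (knockout) and 1223 (wild type) in number 2 against 603 and 1056 in number 1 (0.71). Pbx2 read 970.0 and 918 in number 2 against 636 and 610.4 in number 1 (0.59). Both lay above the number 1 arrays without overlap. Irx1 read 275 and 331 in number 2 against 709 and 469 in number 1 (-0.91). Its chromosome 13 neighbour Irx2 read 721 and 629 in number 2 against 1425 and 724 in number 1 (-0.59), and the third gene of that cluster, Irx4, stayed under 7 on every array (highest 6.31). Meis3 read 131 and 93.4 in number 2 against 153 and 162 in number 1 (-0.47). Pbx4 read 57.2 and 90.9 in number 2 against 135 and 109 in number 1 (-0.68). Meis1 read 329 and 347 in number 2 against 247 and 369.98 in number 1, with overlap (0.16).

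Twist1 and Twist2, basic helix-loop-helix genes of mesenchyme in general, were bright on all arrays. Twist1 read 916 (knockout) and 763 (wild type) in number 2 against 802 and 755 in number 1 (0.10). Twist2 read 1563 and 2279.9 in number 2 against 2314 and 2214 in number 1 (-0.26). Neither passed (limma adjusted p = 0.788 and 0.473).

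Among the 34 genes below the limit, 7 exceeded the array-wide median signal of 65.2 on at least 1 array: Alx1, Tbx3, Tbx18, Dlx5, Zic5, Otx1 and Tbx6, which read 49.5 and 77.7 in number 2 against 33.4 and 30.8 in number 1. The remaining 27 lay between 0.59 and 58.3 on every array, Pitx1 among them. Within each genotype, 5 of the 34 were at least 2-fold lower in number 2, where 4.00% of all 7479 genes below the limit were, and 0 were at least 2-fold higher, where 1.38% were.

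Leaving out an array leaves 1 array at that number and fewer residual degrees of freedom. Whether a call lost in this way rested on the array left out was not tested. Without the wild-type array numbered 2, 7 of the 28 passed, and the limma adjusted p was 0.183 for Dlx1, 0.221 for Msx2 (log2 difference 0.87), 0.110 for Pbx3 and 0.0847 for Tbx20, while Irx3 kept its call at a log2 difference of 1.75. Without the knockout array numbered 1 it was 0.0517 for Dlx1 and 0.0585 for Msx2. Without the knockout array numbered 2 it was 0.102 for Pbx3 and 0.0512 for Tbx20, with 9 genes passing in each case. Without the wild-type array numbered 1, 15 passed, with Irx1, Irx2, Meis2 and Msx1 added (0.0151, 0.0145, 0.0102 and 0.0192). Over all tested genes, leaving out a knockout array gave 1528 calls (number 1) or 740 (number 2), and leaving out a wild-type array gave 1645 (number 1) or 769 (number 2), where all 4 arrays gave 1467.

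**Figure D2:**
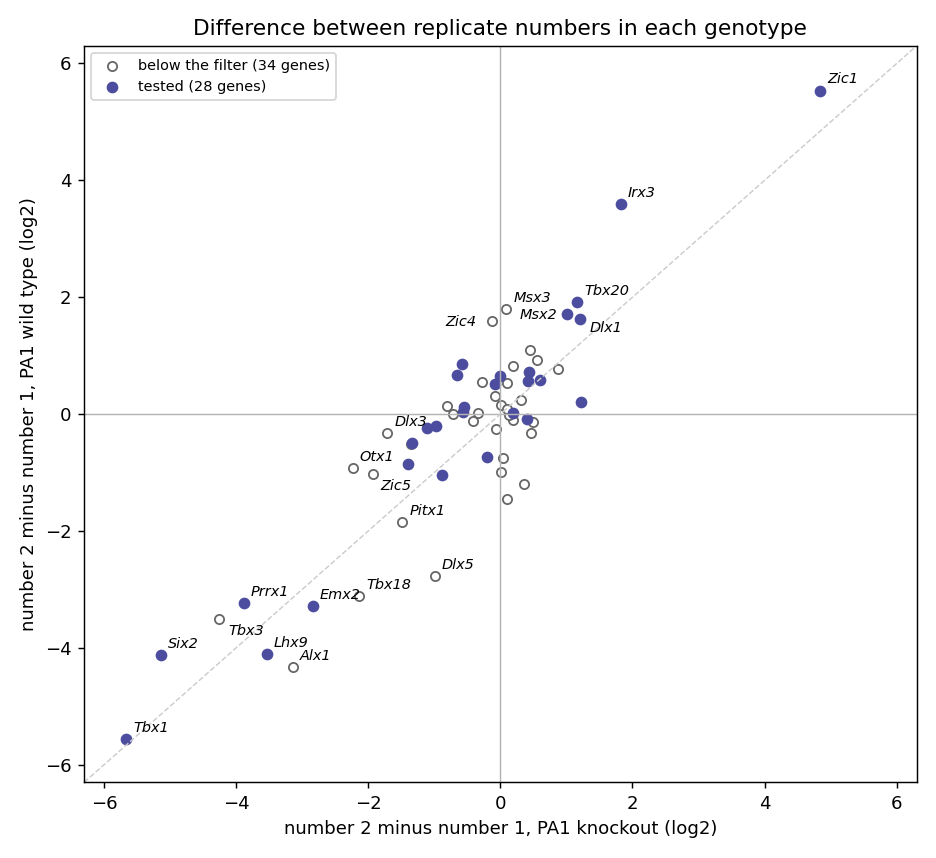
Log2 difference of number 2 minus number 1 in knockout cells (horizontal) and wild-type cells (vertical) for all 62 genes; filled points are the 28 tested genes, open points the 34 below the limit, and the dashed line marks equal differences. Tbx1, Six2, Lhx9, Prrx1, Emx2, Alx1 and Tbx3 lie far down in both genotypes, and Zic1 and Irx3 far up.

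The comparison of genotypes sets PA1 -/- cells infected with Cre against PA1 +/+ cells infected with the empty vector. Loss of PA1 and exposure to Cre cannot be told apart in it, nor can direct and indirect effects. Between knockout and wild type, none of the 28 tested positional genes passed limma with genotype as the only term (0 of 28, where 0% of all 10714 tested genes passed). At an unadjusted p under 0.05 there were 2, Dlx2 and Prrx2, where 2.16% of all tested genes reached it. With robust variance estimation there were 2 and without an intensity trend 1, and 0 passed after adjustment under either. In this fit, the difference between the numbers counts as spread, and Pagr1a missed the threshold too. With 2 arrays a side, the smallest p of an exact permutation test is 0.333.

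Genotype was therefore read within each replicate number, 1 array against 1, which has no replicate check. Prrx1 was the single gene of the 28 that was at least 2-fold lower in the knockout at both numbers (0.831% of all tested genes were), and 0 were at least 2-fold higher at both (0.187% of all tested genes). In the same direction at both numbers, 7 were lower (29.3% of all tested genes) and 11 higher (33.9%), and 10 went opposite ways. The median difference was 0.04 over the 28 genes and 0.02 over all tested genes. At number 1 alone, 1 gene was at least 2-fold lower (2.47% of all) and 2 higher (1.36%). At number 2 alone, 2 were lower (2.13%) and 0 higher (0.896%).

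**Figure D3:**
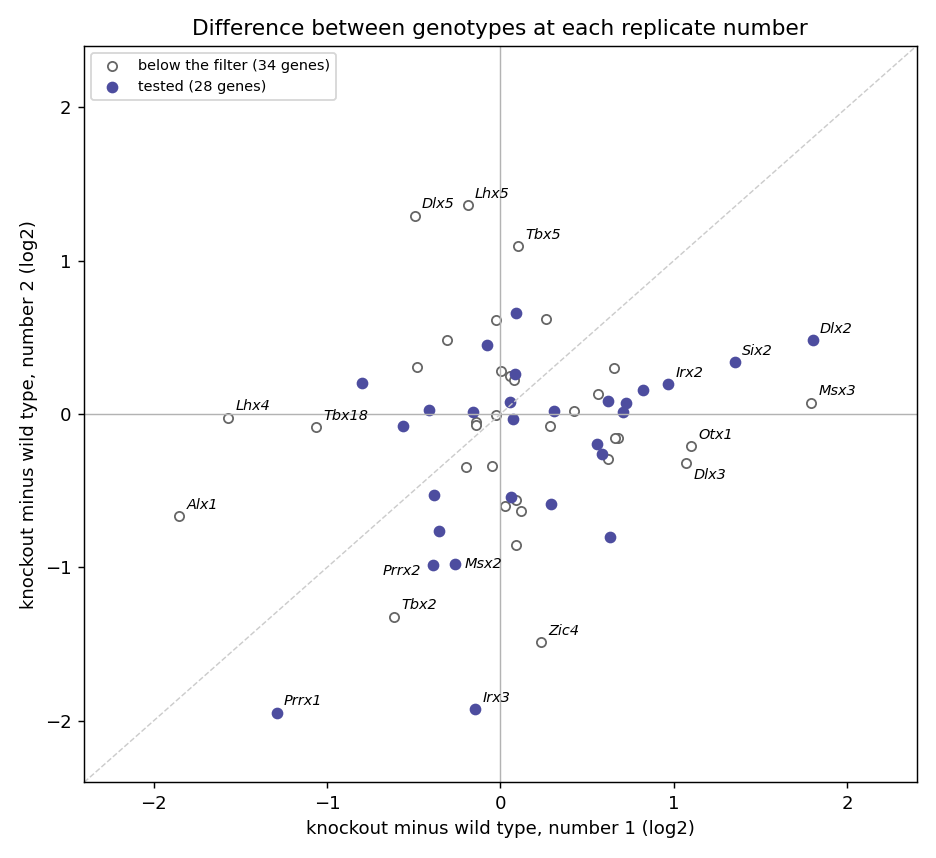
Log2 difference of knockout minus wild type at number 1 (horizontal) and number 2 (vertical) for the 62 genes; filled points are the 28 tested genes and open points the 34 below the limit. Prrx1 lies below -1 on both axes, while Dlx2 and Six2 are past 1 at number 1 and Irx3 below -1 at number 2.

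Prrx1 read 1160.4 and 69.1 in the knockout arrays numbered 1 and 2, against 2849.6 and 295 in the wild-type arrays. The knockout value was lower at each number, by -1.29 at number 1 and -1.95 at number 2 on the log2 scale. Across genotypes the values overlapped, the wild-type array numbered 2 being dimmer than the knockout array numbered 1. The difference in all was -1.62 (SE 1.66, limma adjusted p = 0.9998), with the difference between the numbers counted as spread. The fit with the number as a further term is given with the alternatives at the end. All 5 tested probe sets were lower in the knockout at both numbers, from -1.71 to -0.53 at number 1 and from -1.95 to -0.76 at number 2. A further dim probe set, below the limit, read 27.0 and 2.00 in the knockout against 13.2 and 14.6 in the wild type.

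Prrx2, the other Prrx gene, read 3102 and 2932 in the knockout arrays against 4065 and 5799.9 in the wild-type arrays, without overlap. Its differences were -0.39 at number 1 and -0.98 at number 2, and -0.69 in all (SE 0.243, limma adjusted p = 0.9998). Alx1, another gene of this class, read 129.6 and 5.80 in the knockout arrays against 494 and 15.02 in the wild-type arrays. The difference was -1.85 at number 1, where the gene was bright, and -0.66 at number 2, where both values lay below the median of the array.

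**Figure D4:**
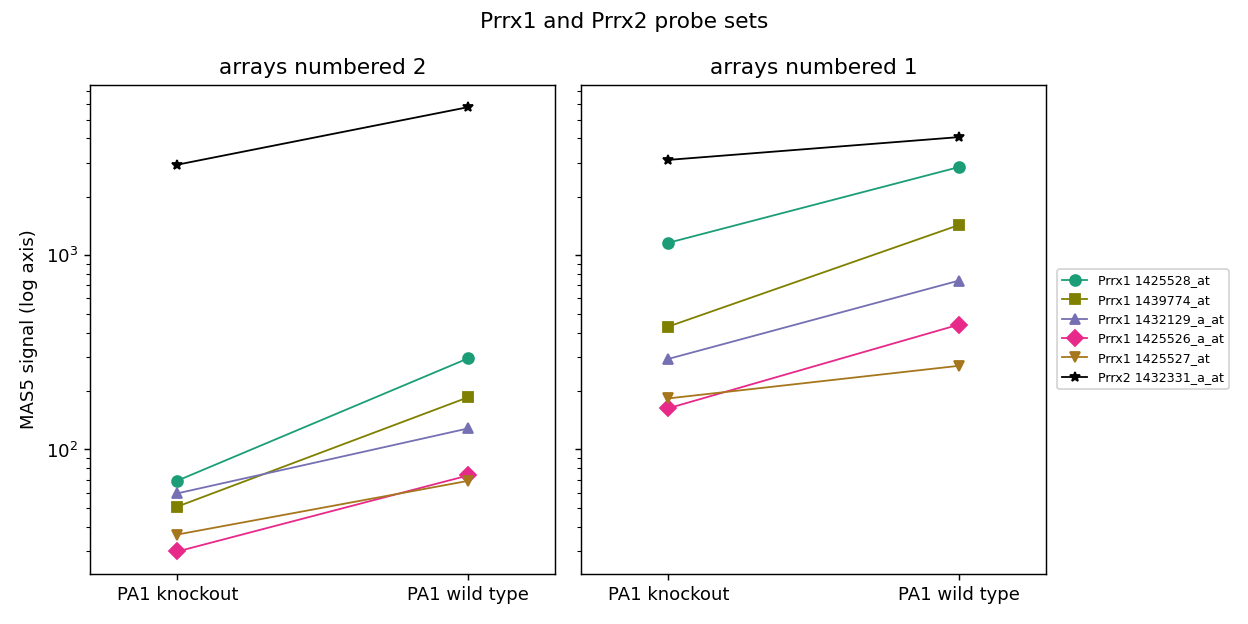
MAS5 signal (log axis) of the 5 tested Prrx1 probe sets and the Prrx2 probe set in knockout and wild-type arrays, joined within each replicate number. The lines run upward from knockout to wild type in both panels, and the Prrx1 lines lie lower in the arrays numbered 2.

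Dlx2, which acts in the pharyngeal arches and in forebrain interneurons, had the largest difference in the other direction. It read 562 and 354 in the knockout arrays against 154 and 251 in the wild-type arrays, without overlap. The difference was 1.80 at number 1 and 0.48 at number 2, and 1.14 in all (SE 0.395, limma adjusted p = 0.9998). Its neighbour Dlx1 went below 0 at both numbers (-0.35 and -0.76). Six2, bright only at number 1, read 1574 against 611 there (1.35) and 34.9 against 25.5 at number 2 (0.34). Irx2 was 0.97 higher at number 1 and 0.19 at number 2.

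Tbx15 read 1528 and 1044 in the knockout arrays against 860.1 and 936 in the wild-type arrays, without overlap (0.82 at number 1, 0.16 at number 2). A further probe set of Tbx15 gave 0.99 and 0.67. Lhx6 and Twist1 were also higher in both knockout arrays than in either wild-type array, by 0.40 and 0.17. A dimmer Lhx6 probe set, below the limit, was lower in the knockout at both numbers (-0.30 and -0.09). Without overlap, 4 of the 28 lay higher (15.0% of all tested genes) and 2 lower (11.3%), the lower ones being Prrx2 and Meis1, a Hox partner gene (-0.32). The 3 tested probe sets of Meis1 were each lower in the knockout at both numbers.

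Irx3 showed a genotype difference at number 2 alone, where the gene was bright: 860.4 in the knockout against 3286 in the wild type (-1.92). At number 1 it read 237 against 263 (-0.15). Msx2 had a like pattern, with -0.26 at number 1 and -0.98 at number 2, where it read 204 against 411. Irx5 turned its sign between the numbers, at 0.63 and -0.80. Whether these differences depend on the number was not tested, since 4 arrays leave no residual for such a term.

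Zic1, Tbx1, Lhx9 and Emx2 had the smallest p-values between the numbers, and a small p there requires genotype values that lie close within each number. Their values where bright are therefore a description. Zic1 read 1436 in the knockout against 1420.1 in the wild type at number 2 (0.02). Tbx1 read 541 against 515 at number 1 (0.07), Lhx9 632 against 594 (0.09) and Emx2 726 against 970.3 (-0.41). Six2 and Prrx1, with number differences at least as large as that of Emx2, lay further apart between genotypes at number 1 (1.35 and -1.29).

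The other differences at numbers 1 and 2 were -0.80 and 0.21 for Meis2, -0.08 and 0.45 for Meis3, 0.06 and 0.08 for Pbx2, -0.16 and 0.02 for Pbx3, and 0.29 and -0.59 for Pbx4. They were 0.58 and -0.26 for Irx1, 0.62 and 0.08 for Msx1, 0.31 and 0.02 for Six4, -0.38 and -0.53 for Six5, 0.56 and -0.19 for Tbx20, and 0.06 and -0.54 for Twist2. None of these reached 2-fold. The other tested probe sets of Pbx2 gave 0.21 and 0.17, and 0.95 and 0.51, the latter without overlap between genotypes. Those of Meis2 gave -0.14 and -0.14, -0.51 and -0.0062, and -0.0081 and 0.65. That of Pbx3 gave 0.28 and 0.10, and those of Six4 gave -0.29 and 0.34, and -0.49 and 0.46.

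Partners of these factors were read from a fixed list of 26 genes, 19 of them tested. Between the numbers, 3 were lower (7.24% of all tested genes) and 1 higher (6.45%) in number 2 past the test. Eya4, a phosphatase that activates transcription with sine oculis homeobox proteins, read 275 (knockout) and 572 (wild type) in number 2 against 2319 and 3792 in number 1 (-2.87, limma adjusted p = 0.0034). Pknox2, a TALE gene whose protein pairs with Pbx, was lower too (-3.12), and Tgif1, another TALE gene, was higher (1.82). The E-protein gene Tcf12 was lower by -0.77 on the log2 scale. Between genotypes 0 of 19 passed, with 12 below 0 and 7 above, where 5004 of all 10714 tested genes were below 0. The largest differences were -0.87 for Eya4, -0.83 for Tcf4, -0.79 for Ssbp3 and -0.63 for Id4.

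In a list of 39 other positional and mesenchymal transcription factors, 36 were on the array and 18 tested. Gata6, Foxd1, Hlx, Meox1 and Snai1 were lower (7.24% of all tested genes) and Shox2 was higher (6.45%) in number 2 past the test. Gata6, a gene of heart and endoderm, read 181.2 (knockout) and 181.0 (wild type) in number 2 against 1625 and 1470.2 in number 1 (-3.03, limma adjusted p = 0.000317). Between genotypes 0 of 18 passed, with 14 below 0, where 5004 of all 10714 tested genes were below 0. The largest differences were -1.24 for Osr1, a gene of the intermediate mesoderm, -0.80 for Meox1, -0.80 for Snai2 and -0.44 for Sp7.

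Of 25 patterning signals and their responses, 24 were on the array and 12 tested. Tgfb2 (-4.29) and Gli2 (-2.18) were lower, and Fgf10 (2.47), Grem1 (2.21) and Fgfr1 (1.48) higher, in number 2 past the test. Of all tested genes, 7.24% passed as lower and 6.45% as higher. Between genotypes 0 of 12 passed. Bmp4, which induces Msx genes, read 460.3 and 569 in the knockout arrays against 2814 and 1303 in the wild-type arrays, at least 2-fold lower at both numbers (-2.59 and -1.18). Edn1, a signal of the lower jaw, was above 0 at both (0.71 and 0.74), as was Gli2 (0.61 and 0.81), and Tgfb2 was below 0 at both (-0.15 and -0.88). The 9 partners of PA1 in its complexes were all tested, 0 passed in either comparison, and the largest genotype differences were 0.44 for Paxip1, 0.41 for Kdm6a, 0.36 for Ncoa6 and 0.30 for Wdr5.

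Among the markers, the fibroblast genes Col1a1 (-1.18) and S100a4 (1.59) and the epithelial keratin gene Krt18 (-3.36) also passed between the numbers, where 13.7% of all tested genes did. Between genotypes Pdgfra, which encodes a receptor tyrosine kinase, read 134 and 210.3 in the knockout arrays against 1515 and 357 in the wild-type arrays. All 10 tested fibroblast markers were below 0 with 0 passing, where 5004 of all 10714 tested genes were below 0. The dim fibroblast marker Lum, below the limit, went the other way, with 31.1 and 28.9 in the knockout against 21.3 and 19.0 in the wild type. The part of the fibroblast markers in the genotype values of Prrx1 and Prrx2 was not tested.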

How the data were processed

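Total RNA of each sample went onto its own Affymetrix array, 4 in all, per the labels. The deposited intensity values are linear probe set signals made by the authors with MAS5, per the submitters' processing notes; its version and settings were not stated there. Their mean without the lowest and highest 2% was 500 on every array, within 0.1, so each difference is relative to its array. Leaving out 64 controls gave 45037 probe sets: 34945 with 1 platform symbol, 932 with several (not named) and 9160 with none. All 62 genes matched the RefSeq gene table (GRCm38.p6), with 0 symbols changed.

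All tests used log2(signal + 9.98). The added constant is percentile 20 of the values, and it makes folds of dim genes too small. The upper 50% by mean were tested with limma 3.58.1 in R 4.3.3 (lmFit, eBayes with trend, 2-sided, Benjamini-Hochberg over 22519 probe sets, threshold 0.05, 2 residual degrees of freedom). Genotype and replicate number were each fitted as the only term. A gene was read through its brightest tested probe set. Every tested member was named, with those below the limit named if above the median on an array, or if neighbours or paralogs of named genes; up to 4 genes per list were named by size of genotype difference. The genes, lists and tests were chosen with earlier results of these data known. The names passing between numbers in those lists, and the 2-fold counts between numbers, were added after seeing the values. Alternatives were other normalizations, pseudocounts, filters, variance models, mean probe sets, the replicate number as a term, a 1.5-fold limit and leaving out each array. Figures used matplotlib 3.10.9 in Python 3.11.15.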

Additional observations from a re-analysis of the deposited data

How the results depend on the processing

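With replicate number as a block beside genotype, 266 genes passed between genotypes (71 higher and 195 lower in the knockout), and 1 of the 28 positional genes, Prrx1 (-1.62, limma adjusted p = 0.00271). The labels do not say what the numbers share. With 2 pairs, deviations from the genotype means correlated at 0.805 between arrays of the same number, a hint from the data only. Without the block, 0 genes passed under any alternative, arrays left out included. With genotype as a further term, 3332 genes passed between the numbers, 15 of the 28 among them. Without the filter on dim probe sets 736 genes passed, and with the upper 30% kept 3 of 15 positional genes did, as did 1076 of all 8018 genes. With single arrays left out, 740 to 1645 genes and 7 to 15 positional genes passed. The median genotype difference of positional genes was -0.015 after quantile normalization, 0.094 after median scaling, -0.00031 with the pseudocount at the median signal, 0.10 without the filter, -0.070 with the upper 30% kept, and -0.12 to 0.25 with single arrays left out. Prrx1 and Irx3 lost their call between numbers under robust estimation (limma adjusted p = 0.10002 and 0.0849) and without the filter (0.0602 and 0.0729), as did Tbx20, Dlx1 and Msx2 without the filter (0.0731, 0.109 and 0.124). Msx2 also lost it after cyclic loess (0.0584), without a trend (0.0607) and with probe sets averaged (0.0503). Counts at least 2-fold apart at both numbers did not change under the alternatives run, and at 1.5-fold they were the same; leaving out an array gives no such count.

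Signs turned as follows. The number difference of Dlx2 was -0.00045 after median scaling, -0.044 after cyclic loess and -0.027 with the pseudocount at the median signal. The genotype difference was 0.062 for Pbx3 with probe sets averaged and -0.015 for Tbx1 after quantile normalization. With single arrays left out, which leaves the numbers unequal between genotypes, genotype differences ran from -1.37 to 0.25 for Dlx1, -1.83 to 1.45 for Emx2, -0.51 to 0.83 for Irx1, -2.83 to 0.76 for Irx3, -0.51 to 0.34 for Irx5 and -1.68 to 2.42 for Lhx9. They ran from -0.90 to 0.31 for Meis2, -0.18 to 0.55 for Meis3, -0.34 to 1.05 for Msx1, -1.48 to 0.24 for Msx2, -0.23 to 0.37 for Pbx2, -0.60 to 0.46 for Pbx3 and -0.71 to 0.41 for Pbx4. They ran from -3.56 to 0.33 for Prrx1, -1.73 to 3.42 for Six2, -0.20 to 0.53 for Six4, -2.81 to 2.85 for Tbx1, -0.77 to 1.14 for Tbx20, -0.52 to 0.042 for Twist2 and -2.41 to 3.13 for Zic1. Number differences ran from -0.89 to 0.91 for Dlx2, -0.26 to 0.53 for Irx5, -0.041 to 0.68 for Lhx6, -0.13 to 0.44 for Meis1, -0.28 to 0.71 for Prrx2, -0.62 to 0.20 for Tbx15, -0.029 to 0.23 for Twist1 and -0.53 to 0.010 for Twist2. Other causes of these changes were not tested.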
